A study of Homo sapiens with 6 samples.

Results

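NF-kB is a family of transcription factors, and 10 of its genes were followed here: the subunit genes NFKB1, NFKB2, RELA and RELB, the inhibitor gene NFKBIA, and the target genes TNFAIP2, TNFAIP3, BIRC3, ICAM1 and TNF. They were taken from a list of names out of 19432 genes with a named probe on the array. Earlier results of these data were known when the list was chosen. All probes annotated to them were read, which gave 11 probes for 9 of the 10 genes. BIRC3, an inhibitor of apoptosis and ubiquitin ligase, had no probe annotated to it in the annotation used here and was not analysed.

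The arrays were single-colour Illumina bead arrays of HuCCT1, an established human cholangiocarcinoma (bile duct cancer) cell line grown in RPMI1640 medium with serum. The mock cells overexpressed the empty vector, and the other cells, stable derivatives of the same line, were labelled as overexpressing WTAP, a regulatory partner of the enzymes that put methyl groups on adenosines of messenger RNA. There were 3 arrays a group. The titles mark them p4, p5 and p6, written here as 4, 5 and 6, and do not say what the letter stands for. Nothing in the labels says that they came from separate cultures or from more than 1 clone or pool per group, so every p-value measures only the spread between these arrays, which may be technical, and the clone and the transgene cannot be told apart.

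The NF-kB proteins act as dimers. In resting cells inhibitors of the IkB family hold the dimers in the cytoplasm. Signals from tumour necrosis factor, interleukin-1 or Toll-like receptors activate the IKK kinases, which mark IkB for destruction and free dimers such as p50 with p65 to enter the nucleus. Among the genes they induce are their own brakes, and in bile duct epithelium the pathway is known for its part in inflammation of the biliary tract. A second branch, run by the kinase NIK, processes the p100 precursor encoded by NFKB2 to p52, the partner of RelB.

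WTAP itself was read first as the targeted gene. Its brightest probe gave signals of 1019, 1124 and 1060 on mock arrays 4, 5 and 6 and of 1123, 1050 and 1018 on the arrays labelled WTAP 4, 5 and 6, so the groups overlapped (log2 fold change 0.06, SE 0.11, limma adjusted p = 0.721). Another WTAP probe detected on all 6 arrays read 306, 305 and 339 against 303, 297 and 336 (log2 change -0.01, limma adjusted p = 0.970). The remaining WTAP probes were detected on at most 2 arrays. Whether any of these probes reads the transgene's transcript was not tested. The direction of every difference below therefore rests on the labels. Between 15071 and 16307 of 29285 probes were detected on each array at a median signal of 191 to 203. Precision is limited by how many arrays there are. Of 8 biliary epithelial marker genes on the array, all 8 were detected on at least 3 arrays and 7 on all 6, with a summed signal of 137750 to 149201 on mock arrays and 136960 to 147844 on arrays labelled WTAP. For 7 leukocyte markers these sums were 4860 to 5370 and 4750 to 5037. Of these 7 genes, 4 were detected on at least 3 arrays and 2 (CD14 and CD68) on all 6, while PTPRC and CD3E were detected on no array. The summed signals were 552 to 623 in mock and 597 to 639 in WTAP arrays for 4 endothelial markers (CDH5 and KDR on no array), 1317 to 1434 and 1304 to 1619 for 5 fibroblast markers (COL3A1, DCN and PDGFRB on no array), and 944 to 1020 and 819 to 908 for 3 hepatocyte markers. Detection on at least 3 arrays was seen for 0 endothelial, 2 fibroblast and 1 hepatocyte markers. LUM (fibroblast) and ALB (hepatocyte) were detected on all 6, with log2 changes of 1.03 and -0.39 (limma adjusted p = 0.0659 and 0.0716). None of the 15 marker genes tested passed the threshold used below.

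Before the values, the DNA next to the start sites of 5 members is shown, because these genes are textbook targets of the factors that the other members encode. The windows are the 250 bases before an annotated transcript start, taken from RefSeq on build GRCh38.p14 and written 5' to 3' on the gene's strand. Capitals mark matches on either strand to the kB consensus or to the short form GGNNNTTCC, and the matches to these forms overlap each other. NFKB2, ICAM1 and TNFAIP2 are shown as the genes that differed between the lines, NFKBIA and TNFAIP3 as feedback genes that did not pass the test, and of the 3 start windows of NFKB2 the one with most matches.
NFKB2 (chr10:102394328-102394577, plus strand): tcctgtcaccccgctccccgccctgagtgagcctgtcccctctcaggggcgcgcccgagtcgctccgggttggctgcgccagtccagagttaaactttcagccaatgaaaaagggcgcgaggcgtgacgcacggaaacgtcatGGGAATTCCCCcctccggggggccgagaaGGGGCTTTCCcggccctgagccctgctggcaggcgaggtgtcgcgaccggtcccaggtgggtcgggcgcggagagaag
ICAM1 (chr19:10270870-10271119, plus strand): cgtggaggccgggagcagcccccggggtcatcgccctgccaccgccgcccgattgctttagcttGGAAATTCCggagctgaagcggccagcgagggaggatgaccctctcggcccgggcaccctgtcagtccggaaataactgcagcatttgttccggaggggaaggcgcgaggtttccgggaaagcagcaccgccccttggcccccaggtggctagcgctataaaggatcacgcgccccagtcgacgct
TNFAIP2 (chr14:103123211-103123460, plus strand): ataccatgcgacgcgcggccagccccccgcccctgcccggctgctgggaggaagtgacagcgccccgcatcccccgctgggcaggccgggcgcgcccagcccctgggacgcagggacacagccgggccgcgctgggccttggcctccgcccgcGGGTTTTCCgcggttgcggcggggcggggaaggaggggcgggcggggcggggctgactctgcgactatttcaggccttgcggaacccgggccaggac
NFKBIA (chr14:35404750-35404999, minus strand): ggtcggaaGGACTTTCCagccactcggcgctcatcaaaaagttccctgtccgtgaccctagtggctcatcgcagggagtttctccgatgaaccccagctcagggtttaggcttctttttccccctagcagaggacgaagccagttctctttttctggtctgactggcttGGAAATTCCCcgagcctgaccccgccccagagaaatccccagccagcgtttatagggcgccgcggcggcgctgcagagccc
TNFAIP3 (chr6:137867009-137867258, plus strand): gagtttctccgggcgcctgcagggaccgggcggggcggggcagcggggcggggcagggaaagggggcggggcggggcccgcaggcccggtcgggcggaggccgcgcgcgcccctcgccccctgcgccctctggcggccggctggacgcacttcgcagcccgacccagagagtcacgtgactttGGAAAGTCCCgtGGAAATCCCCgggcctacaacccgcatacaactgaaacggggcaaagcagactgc

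Windows were found for 9 of the 10 genes, 13 windows in all, and 8 of these (61.5%) held a match to either form, against 22.1% of the 35116 promoter windows of the same length in the table. The kB consensus was in 6 of the 13 and the short form in 8, against 9.96% and 17.1% of all windows. NFKBIA held GGAAATTCCC between bases 81 and 72 before the start, and TNFAIP3 held GGAAAGTCCC from 67 to 58 and GGAAATCCCC from 55 to 46. In ICAM1 only the short form matched, as GGAAATTCC from 186 to 178, and in TNFAIP2 only GGGTTTTCC from 97 to 89. NFKB2 held GGGAATTCCC from 107 to 98 and GGGGCTTTCC from 78 to 69. These are matches of letters and no record of binding. The members were listed as NF-kB genes and known targets, so their higher share of matches is no independent evidence. Some genes gave several windows, and BIRC3, which was not analysed on the arrays, is counted among them. The windows of RELA and TNF, 1 of 2 of NFKB1 and 1 of 3 of NFKB2 held none.

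All of the 10 probes that could be tested were detected on all 6 arrays (detection p under 0.05, a comparison with the array's own negative controls). The remaining probe, the NFKB2 probe annotated to a further transcript variant, was detected on none, with signals of 115 to 153. A probe was said to have changed when the limma fit over all 15830 detected probes gave a Benjamini-Hochberg adjusted p under 0.05. Of the 10 member probes 3 fell (both detected probes of NFKB2 and that of ICAM1), 1 rose (TNFAIP2) and 6 did not pass. Over all probes tested 19.1% changed, 9.64% higher and 9.44% lower, so 4 of 10 is from few probes and is given as a count. The groups did not overlap for 6 of the 10, against 38.2% of all probes.

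**Figure D1:**
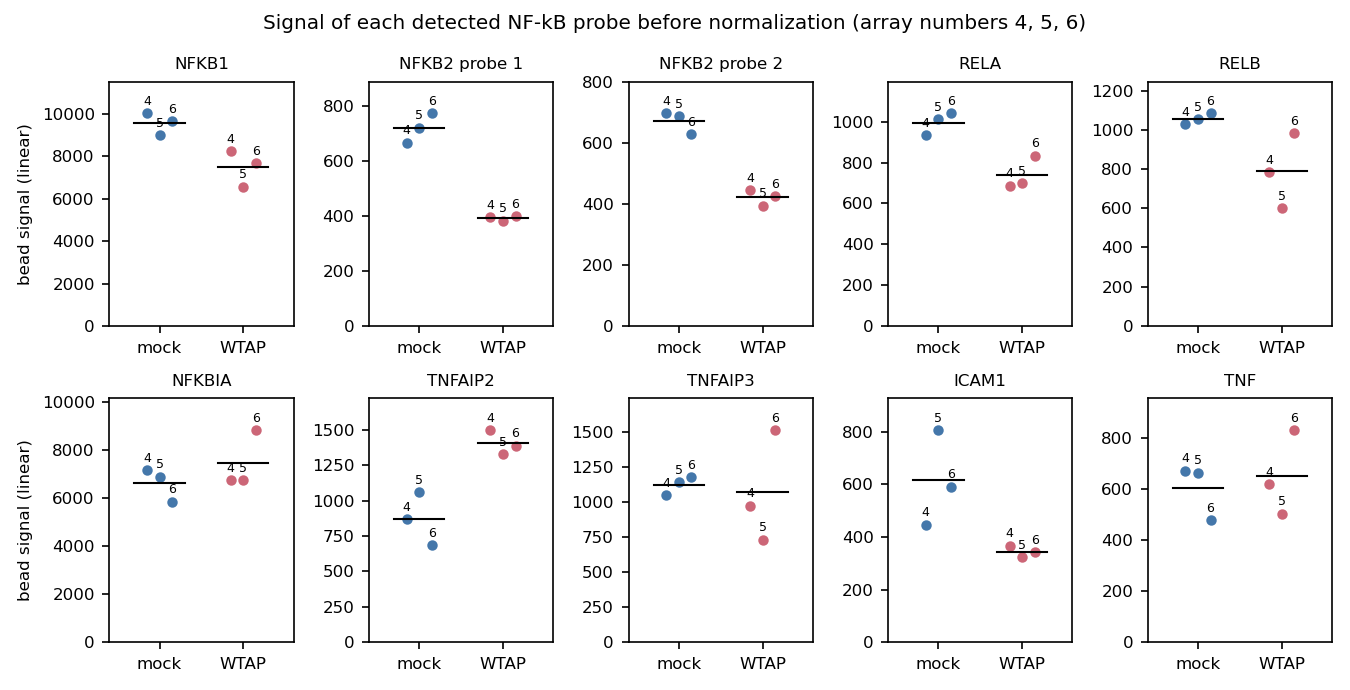
Bead signal before normalization (linear scale from 0) of the 10 detected probes, 1 panel per probe, with points for the 3 mock arrays and the 3 arrays labelled WTAP, marked by array number, and a line at each group mean. NFKB1, NFKB2, RELA, RELB and ICAM1 lay lower on all arrays labelled WTAP than on any mock array, and TNFAIP2 lay higher. TNFAIP3, TNF and NFKBIA were highest on WTAP array 6.

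Among the subunits, NFKB2 was lower in the cells labelled WTAP. In bulk RNA, fewer cells with a transcript and less of it per cell cannot be told apart. It encodes p100, which is both an IkB-like inhibitor and the precursor of p52. Its first probe read 666, 720 and 772 on mock arrays 4, 5 and 6 and 394, 382 and 399 on WTAP arrays 4, 5 and 6, so that all 3 WTAP arrays lay below every mock array. On the normalized log2 scale the means were 9.17 ± 0.14 and 8.06 ± 0.09 (SD, n = 3 each), a change of -1.11 (SE 0.12) or a 2.16-fold fall (limma adjusted p = 0.00105). A second probe, annotated to another transcript variant, read 698, 689 and 629 on the mock arrays and 446, 395 and 425 on the arrays labelled WTAP. These too did not overlap, and the fall was 1.80-fold (log2 change -0.84, SE 0.12, limma adjusted p = 0.00296). NFKB2 lies on chromosome 10, where the median of 563 tested probes was itself -0.46, with 260 lower and 13 higher. After the chromosome's median was subtracted on each array, the first probe was lower by -0.66 on the log2 scale (adjusted p = 0.0142), while the call of the second was lost (-0.39, limma adjusted p = 0.0592).

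RELA encodes p65, the subunit that carries the main activating domain. Its probe read 935, 1011 and 1041 on the mock arrays and 686, 700 and 834 on the arrays labelled WTAP, with array 6 nearest to the mock values but no overlap. The log2 change was -0.45 (SE 0.14, 95% interval -0.77 to -0.13) and missed the threshold (limma adjusted p = 0.0589). With the array number as a block the adjusted p was 0.0387, and without WTAP array 6 it was 0.0216 at a change of -0.57. Without any other single array the change was -0.50 to -0.36 and did not pass (adjusted p 0.0876 to 0.168), and after subtraction of the chromosome median it was -0.32 (adjusted p = 0.169).

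RELB, which encodes the partner of p52 and is itself a target of NF-kB, read 1027, 1054 and 1084 in mock cells. On the arrays labelled WTAP it read 785, 602 and 984. All 3 were below the mock signals, yet after normalization WTAP array 6 fell inside the mock range, and the spread in this group (SD 0.43 on the log2 scale) was larger than in mock cells (0.05). The change of -0.47 (SE 0.20, 95% interval -0.93 to -0.0022) did not pass (limma adjusted p = 0.146). Leaving out WTAP array 6 gave -0.68 and an adjusted p of 0.0253, while leaving out WTAP array 5 gave -0.25 and 0.351.

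NFKB1 encodes p105, the precursor of p50. Its signals were 10033, 8998 and 9677 on mock arrays and 8254, 6578 and 7690 on the arrays labelled WTAP, again without overlap. The log2 change was small at -0.29 (SE 0.12, 95% interval -0.56 to -0.02) and did not pass (limma adjusted p = 0.130). NFKB1 lies on chromosome 4, whose 548 tested probes had a median of -0.23, and after subtraction of that median its change was -0.07. The other chromosomes that hold members had medians of -0.12 (chromosome 11, RELA), -0.03 (chromosome 14, NFKBIA and TNFAIP2), -0.02 (chromosome 19, RELB and ICAM1) and -0.01 (chromosome 6, TNFAIP3 and TNF). The median over all probes tested was -0.00.

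**Figure D2:**
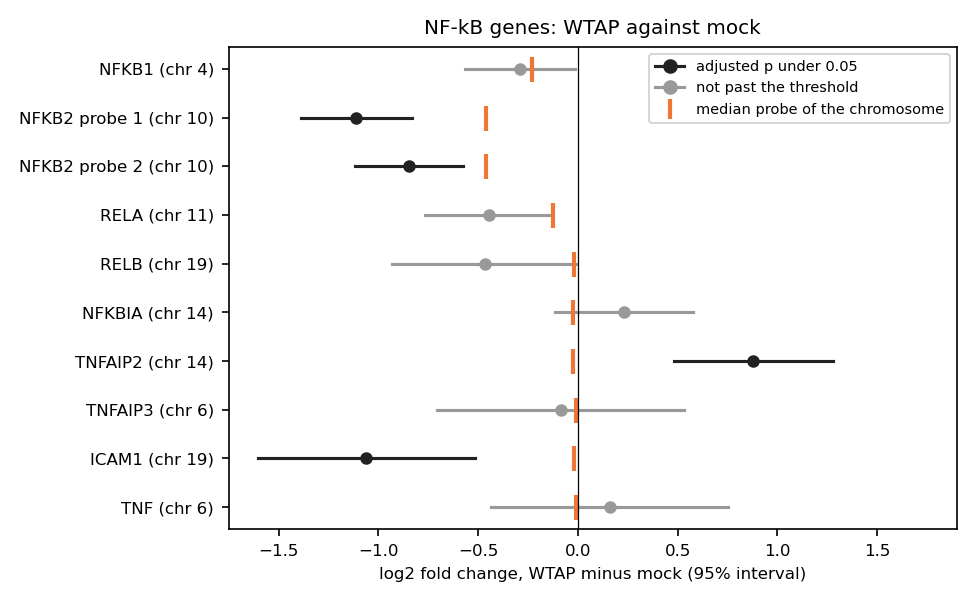
Log2 fold change, WTAP minus mock, of the 10 member probes (points, with 95% intervals of the limma fit; black where adjusted p was under 0.05) and the median change of all tested probes of the same chromosome (orange ticks). The NFKB2 probes at -1.11 and -0.84 stand beside a chromosome 10 median of -0.46, and NFKB1 at -0.29 beside a chromosome 4 median of -0.23.

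NFKBIA encodes IkBalpha, the inhibitor that NF-kB induces within minutes and that ends its own signal. It read 7171, 6883 and 5849 on mock arrays and 6742, 6732 and 8832 on arrays labelled WTAP. WTAP arrays 4 and 5 lay within the mock range and array 6 above it. The change was 0.23 on the log2 scale (SE 0.15, 95% interval -0.12 to 0.58, limma adjusted p = 0.332) and was 0.10 without WTAP array 6 and 0.13 without mock array 6.

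TNFAIP3, the gene of the ubiquitin-editing enzyme A20 that shuts off signalling from the TNF receptor, showed the widest spread between WTAP arrays among the members. It read 1048, 1140 and 1179 in mock cells. In the cells labelled WTAP the readings were 974, 732 and 1514, with arrays 4 and 5 below all mock arrays and array 6 above them all. The log2 means were 9.92 ± 0.10 and 9.83 ± 0.61 (SD, n = 3 each), a change of -0.09 with a 95% interval of -0.71 to 0.53 (limma adjusted p = 0.857). Its direction was -0.41 without WTAP array 6 and 0.19 without WTAP array 5, and neither passed.

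TNFAIP2, a target of NF-kB and of retinoic acid whose protein promotes membrane nanotubes and cell migration, was the member that rose. Its signals were 868, 1058 and 687 on mock arrays and 1498, 1327 and 1387 on arrays labelled WTAP, so every WTAP array lay above every mock array. The log2 means of 9.47 ± 0.34 and 10.35 ± 0.07 (SD, n = 3 each) differed by 0.88 (SE 0.17), a 1.84-fold rise (limma adjusted p = 0.0110). The call was kept in all 16 alternative settings, with changes of 0.70 to 1.04 and adjusted p of 0.000523 to 0.0445.

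ICAM1, the adhesion molecule that binds leukocyte integrins and is induced on epithelium by TNF, fell. It read 447, 806 and 590 on mock arrays and 367, 324 and 342 on arrays labelled WTAP. Mock array 4 was the nearest to the WTAP arrays, and the mock arrays spread more (SD 0.51 on the log2 scale) than the WTAP arrays (0.15). The log2 means were 8.83 and 7.77, a change of -1.06 (SE 0.24) or 2.09-fold lower (limma adjusted p = 0.0181). The call was lost without mock array 6 (-1.05, adjusted p = 0.0521) and without WTAP array 5 (-0.98, adjusted p = 0.0591).

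TNF, the cytokine gene that is both a trigger and a target of the pathway, gave signals of 674, 665 and 479 in mock cells and 619, 505 and 833 in the cells labelled WTAP. WTAP arrays 4 and 5 lay within the mock range and array 6 above it. The log2 change was 0.16 (SE 0.26, 95% interval -0.43 to 0.75, limma adjusted p = 0.715). It was -0.10 without WTAP array 6, -0.04 without mock array 6, 0.24 without mock array 5, 0.27 without mock array 4 and 0.37 without WTAP array 5, and none of these passed.

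**Figure D3:**
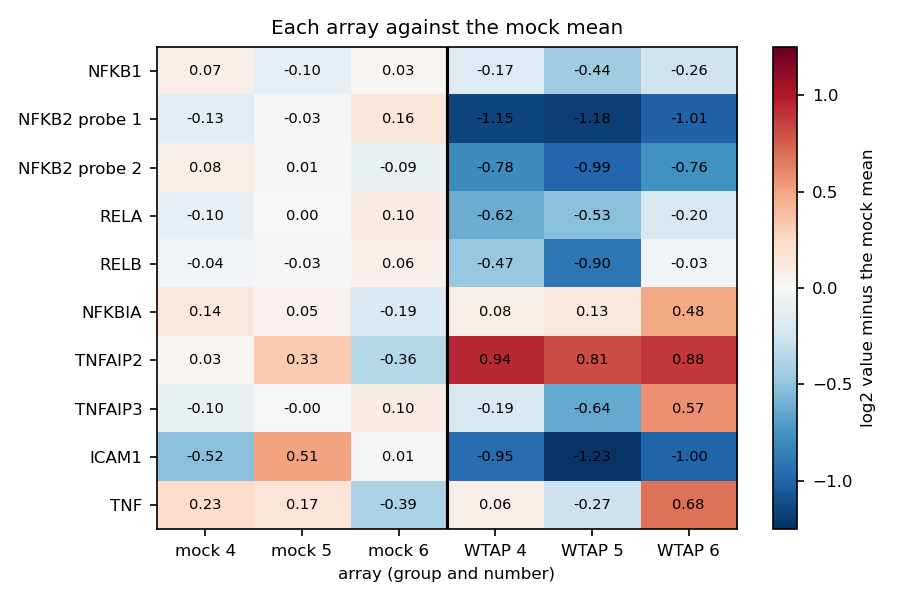
Normalized log2 value of each member probe on each array minus the mean of the 3 mock arrays (blue lower, red higher; numbers give the difference). On WTAP array 6 TNFAIP3 stood at 0.57, TNF at 0.68 and NFKBIA at 0.48, while on WTAP array 5 they stood at -0.64, -0.27 and 0.13, and the 2 NFKB2 probes, ICAM1 and TNFAIP2 were alike on all 3 WTAP arrays.

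The members thus differed in how far WTAP array 6 stood from the other arrays of its group, a feature singled out after the values were seen. On the log2 scale it lay above the mean of WTAP arrays 4 and 5 by 0.99 for TNFAIP3, 0.79 for TNF, 0.65 for RELB, 0.38 for NFKBIA and 0.38 for RELA. For the other probes this gap was 0.16 and 0.13 (NFKB2), 0.09 (ICAM1), 0.05 (NFKB1) and 0.00 (TNFAIP2). Of all probes tested, 5.03% had a gap above 0.5, against 3 of the 10 member probes and 10 of the 31 other target genes described below. Those 10 were IL1B (1.78), IL1A (1.77), IL6 (1.62), LIF (1.47), CXCL8 (1.14), CD83 (1.10), CCL20 (0.68), MMP9 (0.64), CXCL1 (0.62) and PLAU (0.55). In the same list VCAM1 (-1.17), EFNA1 (-0.87) and LCN2 (-0.80) lay below the mean of the other WTAP arrays by more than 0.5. In the lists of signalling genes the gap was above 0.5 for 1 of 5 REL and IkB family genes (NFKBIE, 0.55), 2 of 11 IKK genes (MAP3K14, 0.67, and TAB2, 0.59), 1 of 11 receptors and adaptors (TRAF1, 1.24), 1 of 9 ligands (TNFSF11, 0.94) and 0 of 15 genes of the ubiquitin system. Of the ligands TNFSF10 (-0.76) and TNFSF9 (-0.50) lay low. For comparison with these low gaps, 94.3% of all probes tested had a gap at or above that of TNFSF9. What sets this array apart in these genes was not tested.

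The other genes of the pathway were read through the brightest detected probe of each, from lists by role. Over all 11586 genes read in this way 19.3% changed, and the median log2 change was 0.00. Of the REL and IkB family 5 of 6 genes were tested: 1 rose, 0 fell, and the list median was -0.12. The gene that rose was BCL3, an atypical IkB protein that acts in the nucleus with p50 or p52 dimers. Its log2 values were 9.56, 9.83 and 9.53 on mock arrays and 10.65, 10.62 and 10.45 on WTAP arrays, without overlap, a change of 0.94 (SE 0.13, limma adjusted p = 0.00270). NFKBIB, NFKBIE, NFKBIZ and NFKBID had changes of -0.12, 0.09, -0.27 and -0.12 and did not pass, and REL was detected on no array.

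Of the IKK complex and its upstream kinases, 11 of 15 were tested and 1 rose, with a list median of 0.06. The one that rose was IKBKB, the catalytic subunit that phosphorylates IkBalpha, with log2 values of 8.87, 9.22 and 8.81 on mock and 9.78, 9.81 and 9.79 on WTAP arrays (change 0.82, SE 0.13, limma adjusted p = 0.00530). After subtraction of the chromosome medians the IKBKB change was 0.59 and still passed (limma adjusted p = 0.0233). A second IKBKB probe, detected on 4 of the 6 arrays, showed a change of 0.01 (adjusted p = 0.966). CHUK, the other catalytic subunit, had -0.18, and IKBKG, the scaffold subunit, 0.28, neither past the threshold. MAP3K14, the gene of NIK, had 0.51 (adjusted p = 0.151) and passed with the array number as a block (adjusted p = 0.0331), which made 2 higher. The list had 2 higher with an offset of 50 or with probes detected on all arrays, and 4 higher with no background correction, with a trended and robust variance and in the authors' processed table.

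Of 13 TNF family receptors and adaptors 11 were tested, with 1 lower and a list median of -0.09. LTBR, the lymphotoxin receptor that feeds the NFKB2 branch, had a change of -0.43 (SE 0.11, limma adjusted p = 0.0266). That call was lost when any 1 of the 6 arrays was left out (adjusted p 0.0520 to 0.0789) and after the chromosome medians were subtracted (adjusted p = 0.0770), and with a trended and robust variance 2 genes of the list were lower. Of 10 ligands 9 were tested, 1 was lower and the median was -0.06. TNFSF12, the gene of the TWEAK ligand, fell by 0.66 (limma adjusted p = 0.0170), and without mock array 5 the adjusted p was 0.0523. After subtraction of the chromosome medians 2 ligand genes were lower. TNFSF10, the gene of the death ligand TRAIL, had 0.69 (adjusted p = 0.158) and passed with the array number as a block (adjusted p = 0.0128). Of the 16 genes of the ubiquitin system of the pathway 15 were tested, with 1 lower and a median of -0.02. TNIP1, which encodes a partner of A20 and is itself a target of NF-kB, fell from 11.79 to 11.19 on the log2 scale (change -0.60, SE 0.11, limma adjusted p = 0.00864). BIRC2, the nearest relative of BIRC3, had a change of 0.08 and CYLD, another deubiquitinase, -0.06.

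Of 33 other genes widely described as NF-kB targets, 31 were tested, 9 fell, 4 rose and 18 did not pass (41.9% changed, list median -0.17). The list was drawn up with earlier results of these arrays known, so its count is no independent evidence. MMP9, a gelatinase, fell by 2.79, CCL20, a chemokine, fell by 1.56, and JUNB, a subunit of the factor AP-1, rose by 0.61 (limma adjusted p = 0.000715, 0.00180 and 0.00765). VCAM1, an adhesion molecule, was detected on none of the mock arrays and on all 3 arrays labelled WTAP. It was at least 2.91-fold higher (7.43 against a bound of 5.89 on the log2 scale), and this bound was not tested. That bound sets the WTAP mean against the higher of the probe's own value and the lowest detected value on each mock array. VCAM1 entered the test only through the arrays labelled WTAP, so its place among the 4 that rose and in the 41.9% is no support for those counts. The fit with no filter on dim probes set 7.43 against the undetected mock mean of 4.94 (limma adjusted p = 0.00537). Without WTAP array 4 or 5, where VCAM1 could not be tested and GADD45B did not pass, 2 genes of the list were higher. The others that fell, named after their values were seen, were IL1A, IL1B, CXCL1, PLAU, CXCL2, SOD2 and IER3, with changes from -2.25 (IL1A) to -0.62 (IER3), and CCL2 (1.44) and GADD45B (0.53) rose. Without WTAP array 6, CXCL8 (-1.18), IL6 (-1.67) and CD83 (-1.07) passed as well, as did EFNA1 (1.05) and LCN2 (0.51), while GADD45B no longer did (limma adjusted p = 0.0891). The IL1B call was lost without mock array 4, 5 or 6 (adjusted p 0.0961, 0.0895 and 0.107) or WTAP array 4 or 5 (0.131 and 0.111), that of IER3 without any of the same 5 arrays (0.127, 0.0625, 0.0967, 0.118 and 0.123), and that of GADD45B without any single array (0.0556 to 0.0964). After subtraction of the chromosome medians the change of PLAU was -0.51 in place of -0.97 and its call was lost (limma adjusted p = 0.0862). CXCL1 and CXCL2 had -0.80 and -0.72 there in place of -1.03 and -0.94. Both still passed (limma adjusted p = 0.028 and 0.022). The calls of IL1B and IER3 were lost there too (adjusted p = 0.0513 and 0.0617), with changes of -1.51 and -0.60 against -1.53 and -0.62. With no filter on dim probes IL1B, IER3 and GADD45B did not pass (adjusted p = 0.0833, 0.0778 and 0.0623), nor did IL1B with a trended and robust variance (0.126) or GADD45B with median scaling (0.0594).

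**Figure D4:**
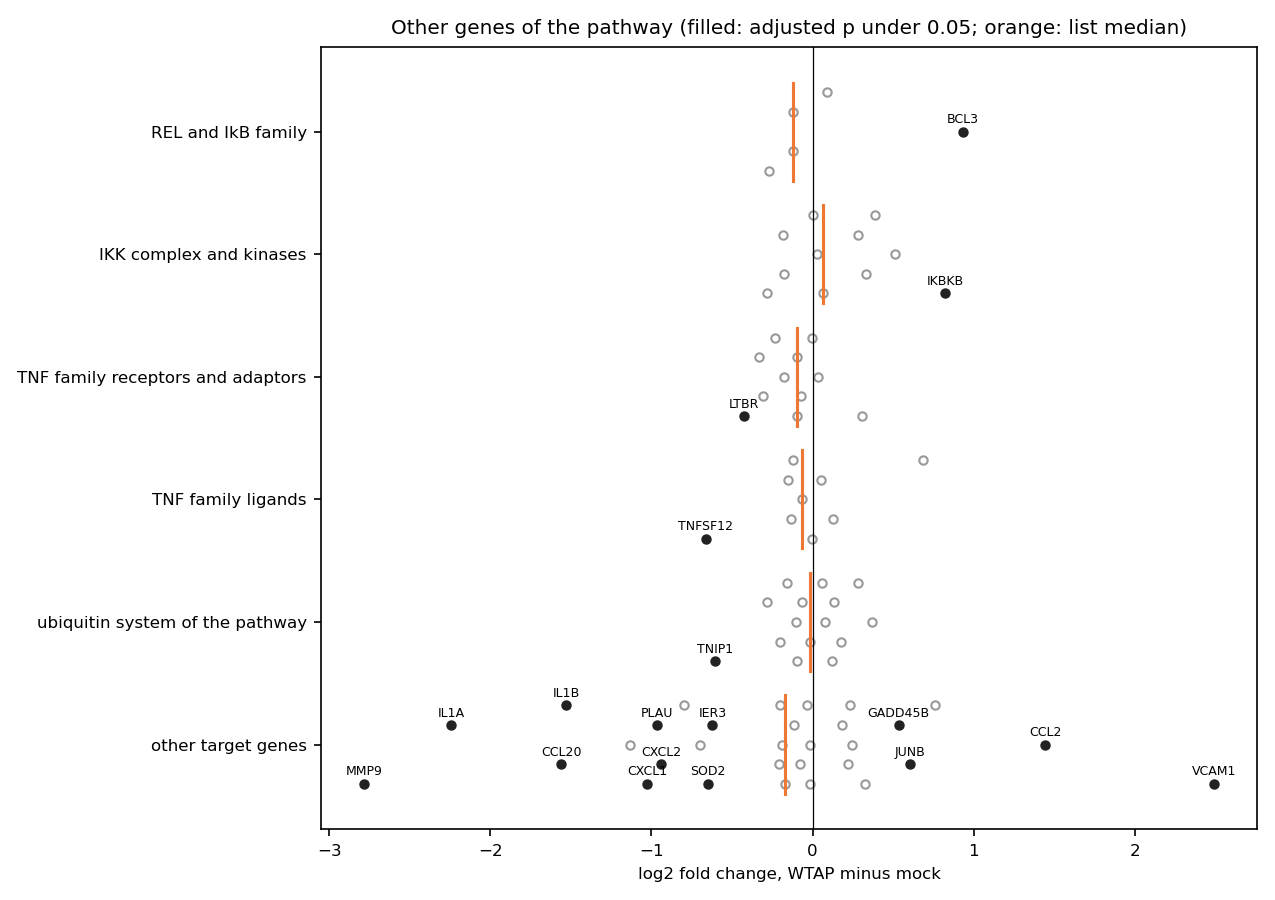
Log2 fold change, WTAP minus mock, of the brightest detected probe of each tested gene in 6 lists of the pathway (filled and named where adjusted p was under 0.05; orange line, list median; heights within a list only separate points). Changes in the 5 lists of signalling genes lay between -0.66 (TNFSF12) and 0.94 (BCL3), and those of the target genes spread from -2.79 (MMP9) to VCAM1, drawn at its fitted value although it was undetected in mock cells.

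ICAM1 had the largest spread over the 6 arrays among the members (SD 0.67 on the log2 scale). The 5 genes whose values, each centred on its own mean over the 6 arrays, were nearest to it were SRGN, a proteoglycan core protein (root mean square difference 0.15), DNAJB3 (0.17), BASP1 (0.19), TMPRSS2, a membrane serine protease (0.20), and HMGA2, a chromatin protein (0.21). All 5 were lower on the arrays labelled WTAP, with log2 changes of -1.19 (HMGA2) to -0.77 (BASP1). Mock array 4 was the lowest mock array for each, as it was for ICAM1. Both features follow from choosing the genes by nearness to ICAM1 on these same 6 arrays, so they are no separate result.

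**Figure D5:**
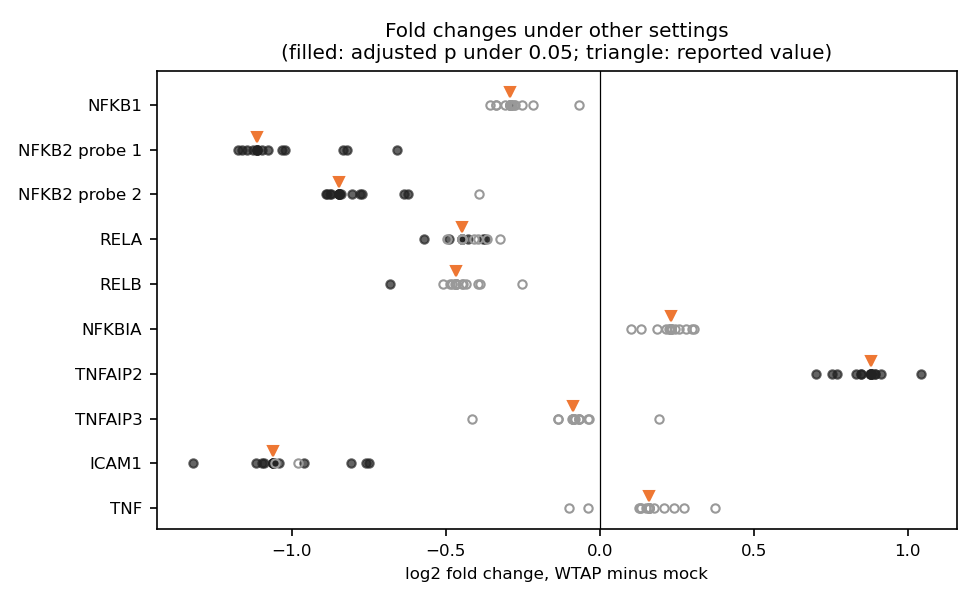
Log2 fold change, WTAP minus mock, of each member probe under the other settings tried (circles, filled where adjusted p was under 0.05) beside the reported value (triangles). NFKB2, ICAM1, RELA, RELB and NFKB1 stayed below 0 and TNFAIP2 and NFKBIA above it in each setting, while TNFAIP3 and TNF fell on both sides.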

How the data were processed

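RNA of 6 arrays was compared, 3 mock and 3 labelled WTAP, grouped by the sample titles. The authors deposited linear probe intensity without normalization, per the file headers. Beside each intensity the authors deposited a detection p-value. BeadStudio 3.3 is named per the submitters' processing notes, while the sources used here do not say how background was treated. A second table of processed intensity that the authors deposited, with column medians of 196.8 each, served as an alternative.

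Probes were named by the platform annotation. For 27819 of 27988 named probes the gene identifier was found in the RefSeq gene table (GRCh38.p14), and the symbol was taken from there, whether or not it differed. Of 29377 probes, 92 were absent from the authors' processed table and were used only in normalization. A further 1297 had no gene name but could be tested. The signals were corrected and normalized by the neqc function (limma 3.58.1, R 4.3.3; normexp from the detection p-values, offset 16, quantile, log2), so that changes of dim probes are understated. Probes detected on at least 3 arrays (15830) were fitted with lmFit and eBayes, adjusted over all of them by Benjamini-Hochberg, and called at 0.05. The script was tested on simulated data.

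The members, lists and tests were chosen with earlier results of these data known. Named are all members with every probe, up to 4 genes per list with the smallest adjusted p, and the 5 genes nearest to the member of largest spread. Others are marked in the text. Arrays of the same number deviated together from their group means (correlations across probes of 0.13, 0.18 and 0.22). Arrays of unlike number gave -0.19 to 0.03. For each probe the deviations cancel out within a group, so positive values for like numbers push the others down, and these are no separate evidence of pairing. The pairing comes from the titles alone, which do not say what a number marks.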

Additional observations from a re-analysis of the deposited data

How the results depend on the processing

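Over 16 alternatives no member call turned its direction. The first NFKB2 probe passed in the 15 that tested it, TNFAIP2 in all 16, the second NFKB2 probe in 15 and ICAM1 in 14, while RELA passed in 8 and NFKB1 and RELB in 1 each. RELA passed with no background correction (adjusted p = 0.0216), an offset of 50 (0.0394), median scaling (0.0418), probes detected on all arrays (0.0439), a trended and robust variance (0.0213), the authors' processed table (0.0206), the replicate block (0.0387) and without WTAP array 6 (0.0216). NFKB1 passed with the trended and robust variance (0.0361), which made 5 member probes lower in place of 3. NFKBIA, TNFAIP3 and TNF passed in none (limma adjusted p at least 0.182, 0.125 and 0.376). Pairing the arrays by a replicate block gave 4 member probes lower and 1 higher, 9 list genes higher and 13 lower, and 1645 probes higher and 1612 lower over all. Besides RELA it added MAP3K14, TNFSF10, IL6 and EFNA1 and changed no other member or list call. List genes that rose numbered 6, and 11 with no background correction, with the trended and robust variance and in the authors' processed table. Each of these counts includes VCAM1, which entered the test only through the arrays labelled WTAP. Without 1 array, 815 to 1354 probes were higher and 821 to 1430 lower (1526 and 1494 with all), and 2 to 5 member probes were lower. Median scaling moved the median of all probes to -0.03 and the share of higher among called probes from 50.5% to 43.3%. VCAM1 could be tested in 12 of the alternatives. The causes of these differences were not tested. With 3 arrays a group, signals near background and changes smaller than the printed intervals are beyond what these arrays resolve.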
